A study of Mus musculus with 9 samples.

Results

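Chemokine receptors were followed in sorted mouse lung macrophages through 8 genes chosen by symbol, out of 24346 gene symbols measured: Ccr1, Ccr2, Ccr3, Ccr7, Ccrl2, Cx3cr1, Cxcr2 and Cxcr4. Chemokine receptors are G protein-coupled receptors with which leukocytes sense gradients of small secreted proteins, the chemokines, and move along them. Receptors of the CC class such as Ccr1 and Ccr2 draw monocytes and macrophages into inflamed tissue, Cx3cr1 marks many monocyte-derived and resident tissue macrophages, Ccr7 leads dendritic cells and lymphocytes to lymph nodes, and Cxcr4 retains cells near its ligand Cxcl12. Ccrl2 is atypical: it binds the protein chemerin, encoded by Rarres2, and presents it without the usual signalling.

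The samples came from female C57BL/6 mice at postnatal week 10, and each of the 3 groups held 3 samples. Ctrl-AM were alveolar macrophages (AMs), the macrophages of the airspace, from mice given vehicle in the left lung. Tumor-AM were AMs from mice whose left lung had received Lewis lung carcinoma cells, a C57BL/6 lung cancer line that here carried the fluorescent protein tdTomato, and Tumor-macrophage were the tumor-associated macrophages (TAMs) of such mice. In both conditions the populations were sorted from CD45+ autofluorescent cells. The study describes AMs as Siglec-F+ F4/80+ CD11b- and TAMs as Siglec-F- F4/80+ CD11b+, and does not say that CD11b was a gate of this sort. None of the 8 receptors was used in the sort, but the study took Ccr2 and Cx3cr1 as TAM markers. Lungs were not perfused, and tumor-bearing and control mice were bred separately, so breeding and tumor cannot be told apart between Ctrl-AM and the other 2 groups.

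Depth was similar, at an estimated 10000000 to 12500000 reads per sample, and between 9876 and 10187 genes reached 1 FPKM (fragments counted per kilobase of a transcript and relative to all mapped fragments). Defining markers were read beside the sort gates. Siglecf ran from 163.97 to 209.03 FPKM in the 6 AM samples and from 0.456 to 0.835 in Tumor-macrophage, and the summed level of 8 AM markers was 1379 to 2306 and 164 to 184. Of 5 general macrophage markers, Adgre1, which encodes F4/80, Cd68 and Csf1r were high in all 9 samples, with Cd68 between 1185 and 1859 FPKM. Adgre1 was at 115 to 145 FPKM in AM samples and 321 to 442 in Tumor-macrophage, and Csf1r at 93.7 to 153 and 458 to 599. Mertk was lower in Tumor-macrophage, at 31.4 to 45.4 compared with 91.5 to 117 in AM samples. Fcgr1 was at 17.4 to 26.8 in AM samples and higher in each Tumor-macrophage sample. Between Tumor-AM and Tumor-macrophage, 3 of the 5 rose and 1 fell. Tgfb3 and Ly6c2, the remaining TAM markers of the study, summed to 4.85 to 8.63 in the AM samples and 62.6 to 69.2 in Tumor-macrophage.

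Of the 8 receptors, 6 had at least 1 FPKM in every sample, Cx3cr1 reached that level in Tumor-macrophage alone, and Ccr3 did not pass the filter of 1 FPKM in at least 3 samples. Between Tumor-macrophage and Tumor-AM, where 48.6% of all genes were called, the 6 receptors detected in every sample were called, and Cx3cr1, which passed the filter through Tumor-macrophage alone, had to differ. Cx3cr1 and Ccr2 were higher by the largest factors, Ccrl2, Ccr7 and Cxcr4 were moderately higher, and Ccr1 and Cxcr2 were lower. Between Tumor-AM and Ctrl-AM, where 10.3% of all genes were called, Ccrl2 and Ccr2 rose and the other 5 tested receptors were not past the threshold of 0.05, which was applied to p-values from limma, adjusted over the 10686 genes tested by the method of Benjamini and Hochberg.

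**Figure D1:**
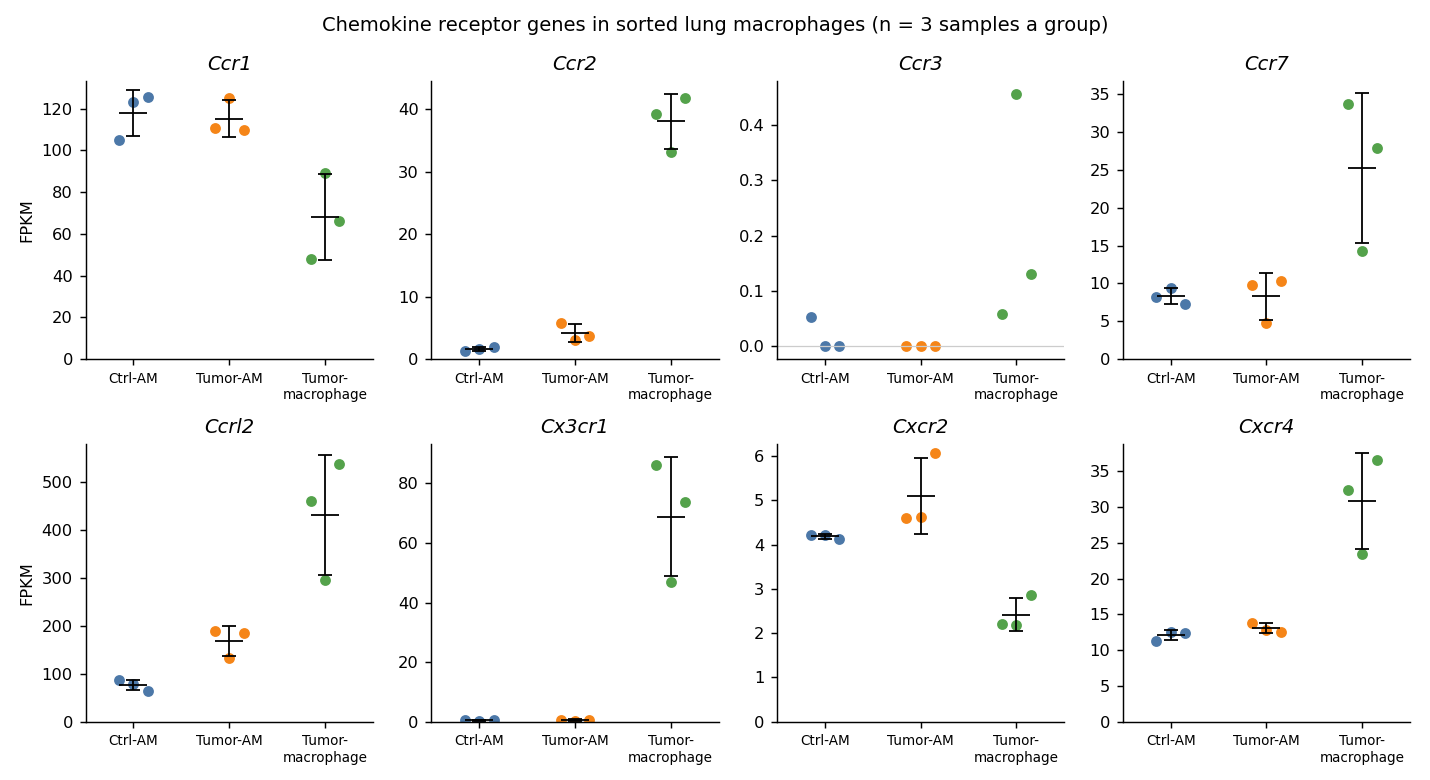
Level (FPKM, linear axis, a scale for each gene) of the 8 receptor genes; points are samples and black bars give the mean ± SD of 3 samples, which is left out for Ccr3 because of its listed zeros. Ccr1 and Cxcr2 are lowest in Tumor-macrophage, the other genes are highest there, and Ccrl2 rises from Ctrl-AM through Tumor-AM to Tumor-macrophage.

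**Figure D2:**
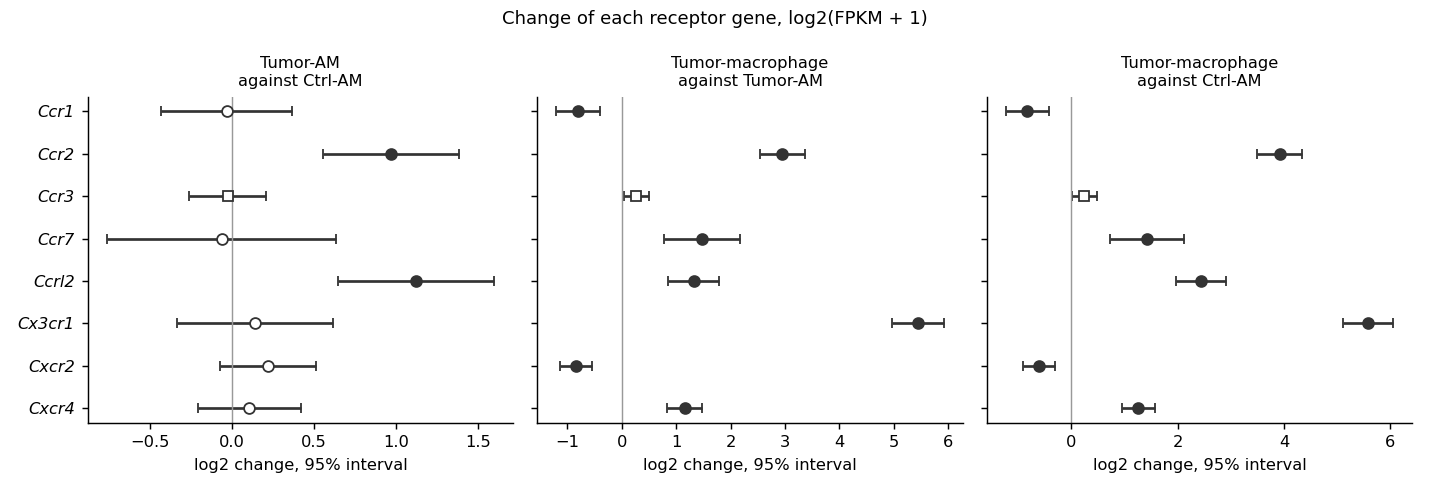
Difference in log2(FPKM + 1) for each receptor gene in the 3 comparisons, with 95% confidence intervals from limma; each panel has its own x axis. Filled symbols have an adjusted p under 0.05, circles are from the fit of genes past the filter, and the square is Ccr3 from the fit without it; in the left panel only Ccr2 and Ccrl2 are filled.

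Ccr1, Ccr2, Ccr3, Ccrl2 and Cx3cr1 lie on mouse chromosome 9 (GRCm38, the assembly also called mm10), Cxcr2 and Cxcr4 on chromosome 1 and Ccr7 on chromosome 11. Ccr1, Ccr3 and Ccr2 lie within 151.434 kb of each other. Of windows of 75 bases, the read length, Ccr2 shared 1.158% and Cxcr2 1.81% with other genes and Cx3cr1 0.113% with Gm33858, whose exons it also overlaps. The remaining 5 shared 0 windows, so few exact stretches of read length were shared with annotated transcripts of other genes. Matches with mismatches, or outside annotated transcripts, were not searched. The way the authors counted shared reads is not given in the sources used here.

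Upstream sequence was taken from RefSeq promoters of GRCm38.p6, which held 7 of the 8 genes, all but Ccr7. It is shown for Ccr1, the member that fell from the highest level, and for Ccrl2 and Cxcr4, which rose. Their windows before a transcript start hold long stretches free of annotated exons. The windows of Ccr3 and Cxcr2 do so too and are not shown. Ccrl2 has 3 entries, and the window shown is that of 1 of them. Capitals mark matches, on either strand and overlaps included, to 3 motifs of macrophage transcription factors: GAGGAA for PU.1, TGANTCA for AP-1 and GGGNNNNNCC for NF-kB. The windows are chr9:123968693-123968942 on the minus strand for Ccr1, chr9:111057520-111057768 on the minus strand for Ccrl2 and chr1:128592300-128592549 on the minus strand for Cxcr4.
Ccr1: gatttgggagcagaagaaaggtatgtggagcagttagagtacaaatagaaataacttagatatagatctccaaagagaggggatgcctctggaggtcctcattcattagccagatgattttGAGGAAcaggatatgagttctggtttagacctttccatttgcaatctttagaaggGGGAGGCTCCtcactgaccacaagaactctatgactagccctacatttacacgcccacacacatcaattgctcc
Ccrl2: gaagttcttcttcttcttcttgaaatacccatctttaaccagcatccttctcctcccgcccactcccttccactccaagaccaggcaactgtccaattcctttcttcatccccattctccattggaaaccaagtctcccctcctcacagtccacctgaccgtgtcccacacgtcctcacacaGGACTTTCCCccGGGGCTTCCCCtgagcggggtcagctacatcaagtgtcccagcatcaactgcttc
Cxcr4: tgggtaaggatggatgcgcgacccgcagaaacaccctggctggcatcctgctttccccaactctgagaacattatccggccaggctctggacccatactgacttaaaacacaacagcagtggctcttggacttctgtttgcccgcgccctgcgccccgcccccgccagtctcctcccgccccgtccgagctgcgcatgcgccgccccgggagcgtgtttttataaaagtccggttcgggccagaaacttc

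The Ccr1 window held 1 PU.1 and 1 NF-kB match, the Ccrl2 window held 3 NF-kB matches that lay within a short stretch near that transcript start, and the Cxcr4 window held 0 matches to these letters. Of the windows not shown, that of Cxcr2, which also fell, held 1 PU.1 and 1 NF-kB match in 245 bases. That of Ccr3 held 1 match to each of the 3 motifs in 250 bases. The other 2 Ccrl2 entries share a window with 110 bases outside exons, which held 0 matches. Of 32851 RefSeq promoters of 250 bases, 23.3% held the PU.1 letters, 6.75% those of AP-1 and 45.8% those of NF-kB, so a match is a description of the sequence and not evidence of binding.

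Ccr1, a receptor for Ccl3, Ccl5, Ccl6, Ccl7 and Ccl9, was the most abundant of the 8 mRNAs in control AMs. Ctrl-AM samples held 105, 123 and 126 FPKM, Tumor-AM samples 111, 125 and 109.6, and Tumor-macrophage samples 48.1, 89.4 and 66.3. Both AM groups overlapped and every Tumor-macrophage sample lay below every AM sample. Ccr1 fell by 0.80 ± 0.18 on the log2 scale in Tumor-macrophage against Tumor-AM (SE, limma adjusted p = 0.0039), and by 0.83 ± 0.18 against Ctrl-AM (SE, limma adjusted p = 0.00267). The difference between Tumor-AM and Ctrl-AM was −0.03 with a 95% interval from −0.43 to 0.37 (limma adjusted p = 0.943).

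Ccr2, the receptor for the monocyte attractants Ccl2, Ccl7 and Ccl12, read 1.30, 1.56 and 1.90 FPKM for the Ctrl-AM samples, 5.83, 3.04 and 3.63 for Tumor-AM, and 39.2, 33.2 and 41.7 for Tumor-macrophage. The 3 groups did not overlap in any pair, and the mean level in Tumor-AM, 4.17 ± 1.47 (SD, n = 3), stood 2.62 times above Ctrl-AM and 9.13 times below Tumor-macrophage. On the log2 scale Tumor-AM stood 0.97 ± 0.19 above Ctrl-AM (SE, limma adjusted p = 0.00965). Tumor-macrophage exceeded Tumor-AM by 2.95 (limma adjusted p = 3.55e-07) and Ctrl-AM by 3.92 (limma adjusted p = 3.06e-08). Tumor-AM 1 was the highest sample of its group, and without it the excess over Ctrl-AM was 0.75 (limma adjusted p = 0.0172).

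In bulk RNA of sorted cells, more cells that express a gene and more RNA of it per cell cannot be told apart, and markers of other cells were therefore read beside Ccr2. Of 6 monocyte markers, 5 were tested and 2 rose between Ctrl-AM and Tumor-AM, where their summed level went from 20.4 to 24.1 FPKM to 26.2 to 34.4. The sum was 99.3 to 109.9 in Tumor-macrophage, with Ly6c2 at 53.1 to 59.2 and Vcan below 1 in all 9 samples. Of the tested monocyte markers, 3 rose and 1 fell in Tumor-macrophage against Tumor-AM, and 4 rose and 1 fell against Ctrl-AM. Ace went the other way from Ccr2, at 2.56 to 3.85 FPKM in AM samples and 0.168 to 0.846 in Tumor-macrophage. The monocyte and TAM marker Ly6c2 moved with Ccr2, at 4.67, 5.41 and 5.66 FPKM for Ctrl-AM and 7.44, 8.20 and 7.75 for Tumor-AM, groups that did not overlap (log2 change 0.50, limma adjusted p = 0.00867). The other monocyte marker that rose was Hp, by 1.23 (limma adjusted p = 0.0286). Tgfb3, the lower of the 2 further TAM markers in the AMs, was not past the threshold between the AM groups, and was at 0.299, 0.201 and 0.873 in Tumor-AM and 9.56 to 13.3 in Tumor-macrophage, and Cx3cr1 was below 1 FPKM in all 3 Tumor-AM samples. The part of other cells in the Ccr2 level of Tumor-AM was not tested.

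Ccr3, the eotaxin receptor of eosinophils and basophils, was close to the limit of detection. The Ctrl-AM samples were listed at 0.0531, 0 and 0 FPKM, all 3 Tumor-AM samples at 0, and the Tumor-macrophage samples at 0.0586, 0.457 and 0.131. Corrected for depth, these values were 1, 1, 8 and 2.5 times the smallest step. In the fit without a filter Tumor-macrophage exceeded Tumor-AM by 0.27 (limma adjusted p = 0.0874) and Ctrl-AM by 0.24 (limma adjusted p = 0.105) on the log2 scale, so a difference was not detectable at this depth. Of 3 eosinophil markers, Epx was listed at 0 in all 9 samples and 0 passed the filter, and their sum was at most 0.064 in AM samples and 0.438, 0.261 and 1.22 in Tumor-macrophage 1, 2 and 3. Of 4 basophil and mast cell markers 1 was tested, and their sum was at most 1.03 in AM samples and 2.34, 10.5 and 5.13 in Tumor-macrophage 1, 2 and 3. The sample with the highest Ccr3, Tumor-macrophage 2, had the highest sum of the basophil and mast cell markers and the lowest eosinophil sum of its group. The former came from Cpa3 (6.96 FPKM) and Fcer1a (3.42). Mcpt8 was listed at 0 there, compared with 0.428 and 0.254 in Tumor-macrophage 1 and 3, and Ms4a2 was at 0.0788, below the 0.164 of Tumor-macrophage 3. The part of such cells was not tested.

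Ccr7, which guides dendritic cells and lymphocytes by Ccl19 and Ccl21, came to 8.20, 9.45 and 7.31 FPKM for Ctrl-AM, 9.82, 4.74 and 10.3 for Tumor-AM, and 33.6, 14.3 and 27.9 for Tumor-macrophage. The AM groups overlapped, the Tumor-macrophage values lay above all of them, and Tumor-macrophage 2 was the nearest to the AMs. The log2 change was 1.48 ± 0.31 against Tumor-AM (SE, limma adjusted p = 0.00264) and 1.42 against Ctrl-AM (limma adjusted p = 0.00297). Between Tumor-AM and Ctrl-AM it was −0.06 with a 95% interval from −0.76 to 0.64, the widest of the 7 receptors, and without Tumor-AM 2 it was 0.26 (limma adjusted p = 0.666).

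Markers of cells that commonly carry Ccr7 moved with it in part. Of 7 dendritic cell markers 4 were tested and 1 rose between Tumor-AM and Tumor-macrophage. They summed to 15.99 to 21.2 FPKM for Ctrl-AM, 9.51 to 11.8 for Tumor-AM and 31.7, 16.2 and 31.9 for Tumor-macrophage 1, 2 and 3, with Cacnb3 below 1 in all 9 samples. Between Ctrl-AM and Tumor-AM 0 of them rose and 1 fell. Cd209a was at 16.9, 6.92 and 14.25 FPKM in Tumor-macrophage 1, 2 and 3, and 4.25 to 7.21 in Ctrl-AM. Ccl22 was at 9.58, 6.875 and 13.2 in Tumor-macrophage 1, 2 and 3, and 9.57 to 13.0 in Ctrl-AM. For 5 B cell markers, 4 of which were tested and rose, the sum was 58.3, 31.5 and 48.5 in Tumor-macrophage, and Pax5 stayed below 1. It was 12.7 to 16.9 for Ctrl-AM and 3.15 to 7.49 for Tumor-AM, where 1 B cell marker was called as lower. For 6 T cell markers, 4 of which were tested and 3 rose, the sum was 14.96, 11.3 and 21.8 in Tumor-macrophage, and Themis stayed below 1. It was 3.67 to 5.59 for Ctrl-AM and 4.80 to 11.5 for Tumor-AM, where 0 were called. Tumor-macrophage 2, the lowest of its group for Ccr7, was also the lowest for each of these 3 sums. That sample was the highest or the lowest of its group for 70.8% of all tested genes. The part of such cells in the Ccr7 level was not tested.

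Cxcr2, the receptor for the neutrophil attractants Cxcl1, Cxcl2 and Cxcl3, was low throughout. Ctrl-AM samples had 4.22, 4.23 and 4.13 FPKM, Tumor-AM samples 4.60, 4.61 and 6.08, and Tumor-macrophage samples 2.22, 2.19 and 2.85. Every Tumor-AM sample was above every Ctrl-AM sample, but the log2 change of 0.22 ± 0.13 was not past the threshold (SE, limma adjusted p = 0.339). Cxcr2 fell by 0.83 ± 0.13 in Tumor-macrophage against Tumor-AM (SE, limma adjusted p = 0.000373) and by 0.61 against Ctrl-AM (limma adjusted p = 0.0026). The 6 neutrophil markers, of which 5 were tested, summed to 142 to 169 FPKM for Ctrl-AM, 146 to 209 for Tumor-AM and 93.6 to 142.8 for Tumor-macrophage, with Mpo below 1 in all 9 samples. Between Ctrl-AM and Tumor-AM 0 of these markers rose and 2 fell. S100a8, the largest part of the sum, was at 71.7 to 81.4 FPKM in Ctrl-AM and 86.0 to 144 in Tumor-AM. S100a9 was at 20.4 to 32.2 and 3.28 to 9.99. Between Tumor-AM and Tumor-macrophage 1 of the markers rose and 2 fell, and their part in the Cxcr2 level was not tested.

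Cxcr4, the receptor for Cxcl12, gave 11.3, 12.6 and 12.4 FPKM for Ctrl-AM, 13.8, 12.9 and 12.5 for Tumor-AM, and 32.4, 23.5 and 36.6 for Tumor-macrophage. The 6 AM samples fell within a narrow band, and all 3 Tumor-macrophage samples lay above it. The log2 change was 1.15 ± 0.14 against Tumor-AM (SE, limma adjusted p = 5.62e-05) and 1.26 against Ctrl-AM (limma adjusted p = 2.38e-05). The difference between the AM groups was 0.11 with a 95% interval from −0.21 to 0.42 (limma adjusted p = 0.701), and its sign turned to −0.02 when FPKM were rescaled to TPM.

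Cx3cr1, the receptor for fractalkine, which is encoded by Cx3cl1, separated TAMs from AMs by the largest factor. The AM samples held 0.436, 0.302 and 0.523 FPKM (Ctrl-AM) and 0.731, 0.270 and 0.741 FPKM (Tumor-AM), which stands for about 11.4 to 34.1 reads a sample. The Tumor-macrophage samples held 86.0, 46.8 and 73.6 FPKM. The AM groups overlapped, and their difference of 0.14 on the log2 scale had a 95% interval from −0.33 to 0.62 (limma adjusted p = 0.742). The log2 change of Tumor-macrophage was 5.44 ± 0.21 against Tumor-AM (SE, limma adjusted p = 1.15e-08) and 5.58 against Ctrl-AM (limma adjusted p = 6.45e-09). On the FPKM scale the mean in Tumor-macrophage was 118 times that in Tumor-AM, since the pseudocount of 1 shrinks changes of low genes. Because Cx3cr1 passed the filter through Tumor-macrophage alone, it had to differ between the groups.

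Ccrl2, the chemerin-binding receptor, was the most abundant of the 8 mRNAs in every sample of tumor-bearing mice. Ctrl-AM samples held 86.4, 78.3 and 64.8 FPKM, Tumor-AM samples 189, 132 and 184, and Tumor-macrophage samples 459.8, 295 and 538. The 3 groups did not overlap, and they were ordered Ctrl-AM, Tumor-AM and Tumor-macrophage. On the log2 scale Tumor-AM stood 1.12 ± 0.21 above Ctrl-AM (SE, limma adjusted p = 0.00893), and Tumor-macrophage exceeded Tumor-AM by 1.32 (limma adjusted p = 0.00042) and Ctrl-AM by 2.44 (limma adjusted p = 3.41e-06). Its ligand gene Rarres2 was low, with means of 3.08 ± 1.56 FPKM for Ctrl-AM, 1.23 ± 0.98 for Tumor-AM and 1.51 ± 0.68 for Tumor-macrophage (SD, n = 3), and was not past the threshold in any of the 3 comparisons (lowest limma adjusted p = 0.118).

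Genes that respond rapidly to stimulation or to handling of cells were read beside Ccrl2. Of 10 immediate-early genes, all tested, 3 rose and 0 fell between Ctrl-AM and Tumor-AM, namely Junb by 1.11, Nr4a1 by 0.92 and Fosb by 0.91 on the log2 scale (limma adjusted p of at most 0.0107). Of all genes, 7.11% were called as higher there. The summed level of the 10 was 1840 to 2226 FPKM for Ctrl-AM, 2262 to 3010 for Tumor-AM and 2300.5 to 3238 for Tumor-macrophage, and within Tumor-AM and within Tumor-macrophage the sample numbered 2 was lowest for both this sum and Ccrl2. Within Ctrl-AM it was otherwise, since Ctrl-AM 1 had the lowest sum and the highest Ccrl2. Tumor-macrophage 2 was the highest or the lowest of its group for 70.8% of all tested genes. The part of sample handling in the Ccrl2 level was not tested.

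Counted over the receptors, 2 of the 7 that were tested rose and 0 fell between Tumor-AM and Ctrl-AM, where 10.3% of all 10686 genes were called and 7.11% were called as higher. Values of the groups did not overlap for 3 of the 7, Ccr2, Ccrl2 and Cxcr2, against 32.3% of all genes. Between Tumor-macrophage and Tumor-AM, 48.6% of all genes were called, 24.2% as higher and 24.4% as lower, and the groups did not overlap for 55.3%. Of the 6 receptors detected in every sample, 4 rose and 2 fell in this comparison. Between Tumor-macrophage and Ctrl-AM, 54.8% of all genes were called, 27.7% as higher and 27.1% as lower, with no overlap for 62.3%, and the same 4 receptors rose and the same 2 fell. Both comparisons use the same Tumor-macrophage samples.

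The make-up of the receptor mRNAs within a sample does not depend on how samples were scaled to each other. The summed level of the 8 genes was 221 ± 7.41 FPKM for Ctrl-AM, 315 ± 27.9 for Tumor-AM and 665 ± 145 for Tumor-macrophage (SD, n = 3). Ccr1 held 48.4%, 53.7% and 58.0% of this sum in the Ctrl-AM samples and Ccrl2 held 39.8%, 34.1% and 29.9%. In the Tumor-AM samples the order of these 2 was the other way round, with 33.1%, 44.3% and 33.5% for Ccr1 and 56.5%, 46.7% and 56.3% for Ccrl2. In Tumor-macrophage, Ccrl2 held 65.6%, 58.5% and 68.4%, Ccr1 6.86%, 17.7% and 8.42%, and Cx3cr1 12.3%, 9.27% and 9.35%.

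**Figure D3:**
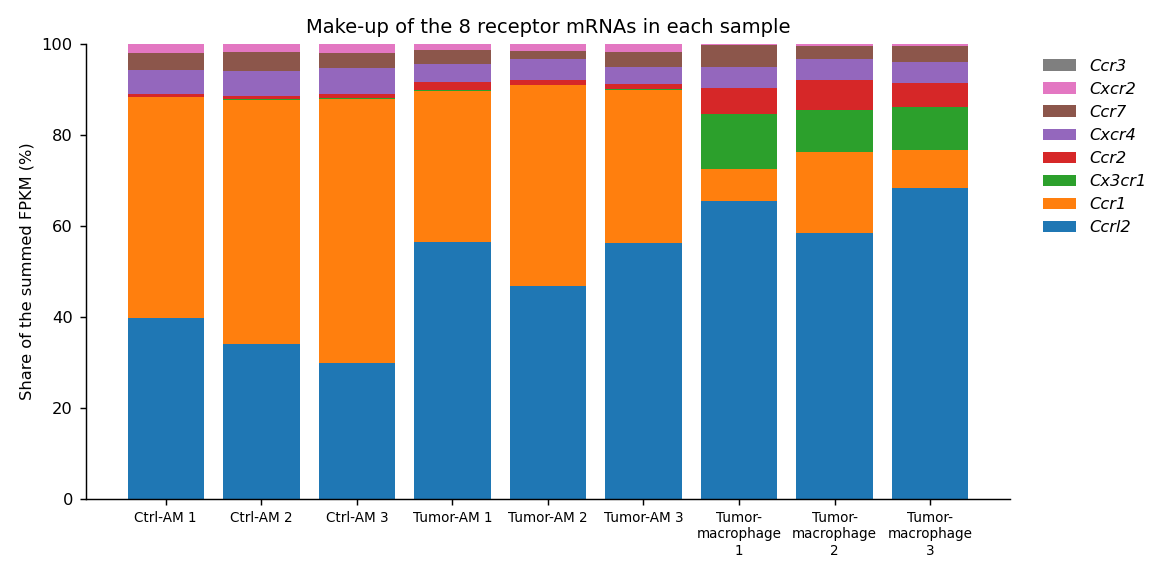
Share of each receptor gene in the summed FPKM of the 8 genes, as stacked bars that add up to 100%, one bar a sample. Ccr1 is the largest part in the 3 Ctrl-AM samples and Ccrl2 in the 6 samples from tumor-bearing mice, and Cx3cr1 and Ccr2 are visible as broad bands in Tumor-macrophage alone.

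The ratio of Ccrl2 to Ccr1, singled out after the values were seen, was 0.822, 0.635 and 0.516 for Ctrl-AM, 1.71, 1.06 and 1.68 for Tumor-AM, and 9.56, 3.30 and 8.12 for Tumor-macrophage. A two-sided exact permutation test of its log2 gave p = 0.1 in each of the 3 comparisons, the smallest that 3 samples against 3 allow, so the ratio could not pass the threshold. The order of all 8 genes was the same in the 3 Ctrl-AM samples, from Ccr1 and Ccrl2 through Cxcr4, Ccr7, Cxcr2, Ccr2 and Cx3cr1 to Ccr3. In Tumor-macrophage, Ccr2 moved up to the fourth place in each sample, and Cxcr2 stood just above Ccr3. The share of Cxcr4 was 5.46% ± 0.247 for Ctrl-AM, 4.17% ± 0.354 for Tumor-AM and 4.64% ± 0.0189 for Tumor-macrophage (SD, n = 3). The 3 groups did not overlap for this share, nor for those of Ccr1, Ccr2 and Ccrl2. These shares are parts of the same sum and so are not separate observations. How often all 3 groups are apart was not counted over all genes. In FPKM, Tumor-AM and Ctrl-AM did not overlap for 32.3% of all genes. Tumor-macrophage did not overlap with Tumor-AM for 55.3% and with Ctrl-AM for 62.3%. A share also moves with the other genes of the sum, and the FPKM of Cxcr4 itself overlapped between the AM groups (limma adjusted p = 0.701).

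Within Tumor-macrophage, sample 2 was an extreme one for all 8 receptors. It was the lowest of the 3 for 6 receptors (Ccr2, Ccr7, Ccrl2, Cx3cr1, Cxcr2 and Cxcr4) and the highest for Ccr1 and Ccr3, where 70.8% of all tested genes had this sample as the highest or the lowest of the group. The sum of 8 epithelial and stromal markers was 73.3 FPKM in this sample and 20.6 in each of the other 2. The higher sum came from Sftpc, at 64.1 compared with 6.19 and 10.8, and to a small part from Sftpa1. Scgb1a1 (3.70 compared with 11.7 and 6.47), Ager, Cdh5, Kdr and Col1a1 were lowest in this sample, and Pdgfra lay between. The sums of AM markers, 164, 184 and 177, differed little. Without Tumor-macrophage 2, the log2 changes relative to Tumor-AM were −1.01 for Ccr1, 3.04 for Ccr2, 1.83 for Ccr7, 1.57 for Ccrl2, −0.78 for Cxcr2 and 1.33 for Cxcr4, each past the threshold.

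Among 15 further chemokine receptor genes, 6 passed the filter, of which Cxcr3 and Xcr1 did so through Tumor-macrophage alone. Between Tumor-AM and Ctrl-AM limma called 0 of them, and 0 had an unadjusted p under 0.05. Of the 4 that did not pass through a single group, 1 rose (Cxcr5) and 1 fell (Cxcr1) in each comparison of Tumor-macrophage. Of all genes, 48.6% were called against Tumor-AM and 54.8% against Ctrl-AM. The filter fixed that Cxcr3 and Xcr1 would be higher there. It also favoured the rise of Cxcr5, which outside Tumor-macrophage reached 1 FPKM in Ctrl-AM 2 alone (1.22 FPKM) and so passed only with the Tumor-macrophage samples.

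Cxcr1, which lies in the same family as Cxcr2, averaged 5.25 ± 1.48 FPKM for Ctrl-AM, 5.27 ± 1.91 for Tumor-AM and 0.0618 ± 0.0538 for Tumor-macrophage (SD, n = 3), and fell by 2.51 on the log2 scale relative to Tumor-AM (limma adjusted p = 8.77e-06). Cxcr3 and Cxcr5, receptors known from T and B cells, were low. In Tumor-macrophage 1, 2 and 3 Cxcr3 was at 5.64, 2.31 and 6.00 FPKM and Cxcr5 at 3.84, 1.82 and 2.596. Cxcr5 changed by 1.39 on the log2 scale relative to Tumor-AM (limma adjusted p = 0.000408), a rise that the filter favoured. The sums of T and B cell markers given above for Ccr7 had their highest values in Tumor-macrophage, although the T cell sum of Tumor-macrophage 2 lay within the range of the AM samples, and their part in these levels was not tested.

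**Figure D4:**
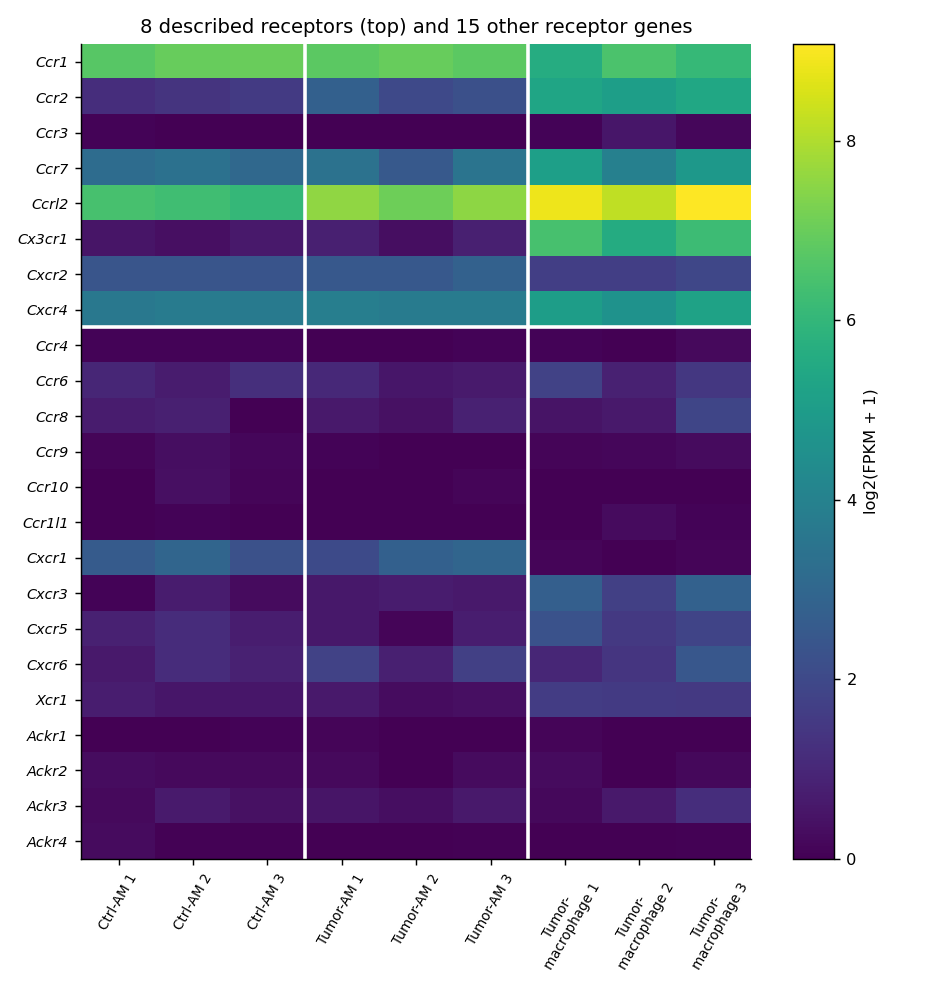
Level, as log2(FPKM + 1) in colour, of the 8 receptors described above (upper rows) and 15 further chemokine receptor genes (lower rows) in each of the 9 samples. Most of the lower rows stay dark, Cxcr1 is brighter in the AM samples, and Cxcr3, Cxcr5 and Xcr1 are brighter in Tumor-macrophage.

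Ligand genes were measured in the same cells. Of 19 ligands of the 8 receptors 12 passed the filter, 2 rose and 0 fell between Tumor-AM and Ctrl-AM, and 8 rose and 2 fell in each comparison of Tumor-macrophage. Of all genes, 10.3% were called between the AM groups. In Tumor-macrophage, 48.6% were called against Tumor-AM and 54.8% against Ctrl-AM. The ligands of Ccr2 were among the largest differences: Ccl2 averaged 11.4 ± 3.2 FPKM for Tumor-AM and 285 ± 86.1 for Tumor-macrophage (SD, n = 3), a log2 change of 4.52 (limma adjusted p = 1.25e-07). Ccl7 changed by 6.996 and Ccl12 by 6.67 (limma adjusted p of at most 3.55e-07). Receptor and ligand mRNAs of the Ccr2 axis were both higher in Tumor-macrophage, and for all 3 ligands the AM groups did not differ past the threshold (lowest limma adjusted p = 0.53).

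For Ccr1 the picture was mixed. Ccl6, the most abundant ligand gene, averaged 6881 ± 317 FPKM for Ctrl-AM, 8482 ± 979 for Tumor-AM and 1233 ± 404 for Tumor-macrophage (SD, n = 3), and fell by 2.82 on the log2 scale relative to Tumor-AM (limma adjusted p = 6.04e-07). Ccl5 rose by 4.69, Ccl3 by 1.41 and Ccl9 by 1.25 (limma adjusted p of at most 0.00234). Receptor mRNA and that of its most abundant ligand in AMs both fell in Tumor-macrophage, while 4 other ligands rose.

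Cx3cr1 and its ligand gene moved in opposite directions, since Cx3cl1 averaged 21.4 ± 1.58 FPKM for Ctrl-AM and 16.5 ± 1.66 for Tumor-AM but 0.807 ± 0.406 for Tumor-macrophage (SD, n = 3), a fall by 3.30 on the log2 scale relative to Tumor-AM (limma adjusted p = 5.74e-08). For Cxcr2, 2 of the 3 ligand genes named above moved opposite to the receptor in Tumor-macrophage. Cxcl1 averaged 21.8 ± 2.36 FPKM for Ctrl-AM, 79.9 ± 20.9 for Tumor-AM and 144 ± 37.7 for Tumor-macrophage (SD, n = 3), and rose between the AM groups (limma adjusted p = 0.000904). Cxcl2 rose by 0.74 there (limma adjusted p = 0.00487). Both ligands rose further in Tumor-macrophage, in which Cxcr2 fell. Cxcl3 did not follow them, with 13.8 ± 7.51 FPKM for Tumor-AM and 9.23 ± 3.87 for Tumor-macrophage (SD, n = 3), a log2 change of −0.51 that was not past the threshold (limma adjusted p = 0.259). The ligands of Ccr7 and Cxcr4 were near the limit of detection, with Cxcl12 at no more than 0.758 FPKM, Ccl19 at no more than 1.41 and Ccl21a at no more than 2.95 in any sample. In the fit without a filter Ccl19 was higher in Tumor-macrophage, by 0.97 against Tumor-AM (limma adjusted p = 0.00254) and 0.98 against Ctrl-AM (limma adjusted p = 0.002). Cxcl12 and Ccl21a were not past the threshold in that fit.

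**Figure D5:**
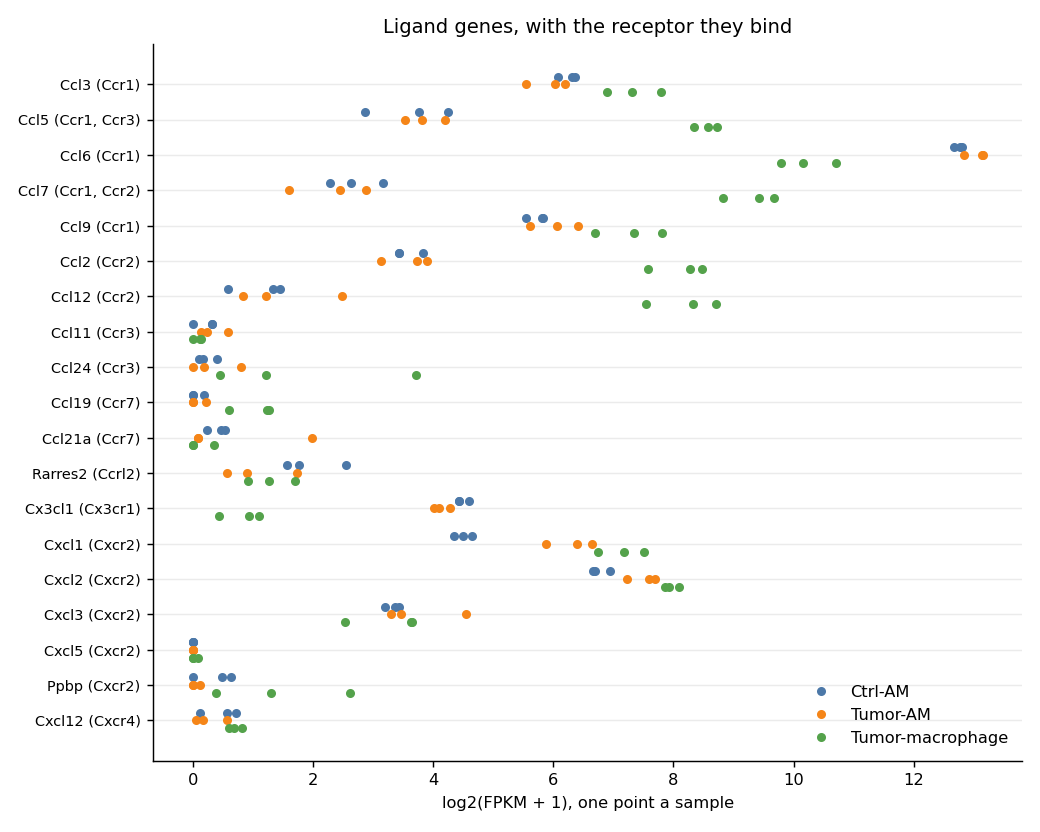
Level of each ligand gene as log2(FPKM + 1), one point a sample, coloured by group, with its receptor in parentheses. Ccl2, Ccl5, Ccl7 and Ccl12 are shifted to the right in Tumor-macrophage, Ccl6 and Cx3cl1 to the left, and Cxcl1 and Cxcl2 rise from Ctrl-AM to Tumor-AM.

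Downstream of the receptors, 16 genes for G protein subunits, phospholipases, kinases and Rac regulators were all tested. Between Tumor-AM and Ctrl-AM 1 rose, the GTPase gene Rac2 by 0.36 (limma adjusted p = 0.0121), and 0 fell. Of all genes, 10.3% were called there. The call for Rac2 was lost when FPKM were rescaled to TPM. Relative to Tumor-AM, 3 rose and 4 fell in Tumor-macrophage, where 24.2% of all genes were called as higher and 24.4% as lower. The median log2 change of the 16 was 0.05, compared with 0.0012 for all genes. Pik3r6, a regulatory subunit of the kinase PI3Kγ, fell by 2.00 and Plcb2, a phospholipase C, fell by 1.19, whereas Gng2, a G protein gamma subunit, rose by 1.91 (limma adjusted p of at most 2.06e-06).

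Of 11 genes that terminate receptor signals (receptor kinases, arrestins and regulators of G protein signalling) all were tested, Rgs18 having passed the filter through Tumor-macrophage alone. Arrb1, an arrestin, rose by 0.70 between Tumor-AM and Ctrl-AM (limma adjusted p = 0.034) and was the only gene of the list called there. Without Rgs18, 5 of the remaining 10 rose and 2 fell in Tumor-macrophage relative to Tumor-AM, with a median log2 change of 0.44. In this comparison 24.2% of all genes were called as higher and 24.4% as lower. Rgs10 went from 15.9 ± 3.64 to 157 ± 19.2 FPKM and Rgs1 from 143 ± 30.8 to 480 ± 64.7 (SD, n = 3), log2 changes of 3.24 and 1.75, while the receptor kinase gene Grk5 fell by 1.30 (limma adjusted p of at most 0.000183).

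The genes most like each receptor were found by Pearson's r of log2(FPKM + 1) over the 9 samples among 5976 genes with a mean of at least 10 FPKM in a group, as a description, since the 9 points share 3 groups. Ccr2 was most like Gpr132, Fam46c and Extl3 (r of 0.996 to 0.997) and Cx3cr1 like Clec10a and Tmem119 (both 0.998). For these 2 receptors 631 and 542 genes reached an r of 0.95. Ccrl2 was most like Btg1, Psap and Lamp1 (0.994 to 0.995), with 153 such genes, and Cxcr4 like Serinc3, Snx18 and Dnajb4 (0.989 to 0.992), with 327. Fewer genes followed the others: 56 for Cxcr2 (led by Rab8a, Plin3 and Spin1), 13 for Ccr1 (Psma6, Mrpl17 and Tsta3) and 10 for Ccr7 (Tnfaip8, Rogdi and Cyp27a1).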

How the data were processed

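Gene expression was measured by RNA sequencing of 9 sorted samples. According to the labels and methods, the authors amplified polyA RNA with the SMART-Seq HT kit, made Nextera libraries, sequenced single-end reads of 75 bases, mapped them to mm10 with TopHat2 2.1.1 and Bowtie2, and computed FPKM with Cuffdiff 2.2.1 as the submitters' processing notes name it. The deposited values are FPKM per gene symbol, and the annotation, strand use and treatment of reads with several positions are not given in the sources used here. FPKM leaves uncorrected any difference in RNA make-up between populations.

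Values were analysed as log2(FPKM + 1), so folds of low genes are understated. Genes with at least 1 FPKM in at least 3 of 9 samples entered a linear model in limma 3.58.1 under R 4.3.3 (intensity trend in the prior variance, 3 groups sharing 1 spread, two-sided, Benjamini-Hochberg adjustment over all genes, threshold 0.05), after the fit had been tested on simulated data. A gene below the filter was read from a fit without it. Reads per sample were estimated from the steps between low values, as relative depth, so counting precision is approximate. The study gives 3 mice per population, while the labels do not say that samples are separate animals, so p-values measure the spread between these samples. The receptors and gene lists were chosen with earlier results of these data known. Named were the 8 receptors, up to 4 called genes with the largest change per list and comparison, the ligands and defining markers, and the 3 genes most like each receptor. Of these and of the receptor list, 2 genes are not reported here, and the counts and sums over receptors leave them out. Positions are from GENCODE and promoters from RefSeq, and 95.7% of symbols matched. Alternatives were a pseudocount of 0.1, no filter, a filter of 5 FPKM, quantile normalization, TPM, median-ratio scaling, a constant prior variance, 2 compared groups only, a 2-fold change required, a replicate block and leaving out each sample.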

Additional observations from a re-analysis of the deposited data

How the results depend on the processing

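Among 280 alternative values for the 16 receptor differences past the threshold, 280 kept their direction and their side of it, with an adjusted p of at most 0.0449 (limma). The total includes Cx3cr1, with 15 values in each comparison of Tumor-macrophage, where the filter fixed that it would differ. The 2-fold requirement is not part of the 280 values and is given below. The widest move of a log2 change was 1.39 times (Ccr1 in Tumor-macrophage relative to Tumor-AM, −0.57 without Tumor-macrophage 1). The values nearest the threshold belonged to Tumor-AM against Ctrl-AM, where leaving out Ctrl-AM 1 gave 0.89 for Ccr2 (limma adjusted p = 0.0449) and leaving out Ctrl-AM 3 gave 1.009 for Ccrl2 (limma adjusted p = 0.0426). Requiring a 2-fold change left 1 receptor in that comparison, Ccrl2, as well as 208 genes, and 1827 and 2150 genes in the comparisons of Tumor-macrophage with Tumor-AM and Ctrl-AM. The receptors called in those 2 comparisons were then 5 of 7, Cx3cr1 included, and Ccr1 and Cxcr2 were no longer called. A filter of 5 FPKM left out Cxcr2, and leaving out any Tumor-macrophage sample left out Cx3cr1, because fewer than 3 samples then reached the filter.

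Differences not past the threshold between the AM groups changed sign: Ccr1 was 0.0026 without Ctrl-AM 2, 0.016 without Ctrl-AM 3 and 0.0037 without Tumor-AM 3, Ccr7 was 0.024 without Ctrl-AM 2 and ran from −0.24 to 0.26 over the samples left out, and Cxcr4 was −0.022 after rescaling to TPM. Leaving out 1 sample gave 535 to 1255 called genes in Tumor-AM against Ctrl-AM, with 535 without Ctrl-AM 1, 682 without Ctrl-AM 2, 546 without Ctrl-AM 3 and 675 without Tumor-AM 3. Rescaling to TPM shifted the median of all genes to −0.11 between the AM groups and −0.21 between Tumor-macrophage and Ctrl-AM, and turned 760 higher and 340 lower genes into 468 and 841, 2588 and 2603 into 2118 and 3121, and 2960 and 2900 into 2120 and 4422. Quantile normalization gave 607 higher and 446 lower between the AM groups. With TPM, Rac2 was no longer called between the AM groups, so 0 genes of the signalling list were, and the cause was not tested. As a share of 23 receptor genes instead of 8, Ccrl2 held 33.1%, 51.5% and 62.7% in the 3 groups.

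Replicate numbers were shared between groups, but the deviations of same-numbered samples correlated with r of only −0.0615 to 0.159 over 9 pairs, so the numbers were not taken as pairs. Between Tumor-AM and Tumor-macrophage every sample correlated best with its own number (r of 0.026 to 0.109), a hint from the data and not from the design. With the replicate block 938, 5069 and 5772 genes were called in the 3 comparisons. The receptors called were 2, 7 and 7 as before, with Cx3cr1, fixed by the filter, in each count of 7. Depth limits Ccr3 and, in the AMs, Cx3cr1, whose values rest on few reads.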
